A study of Arabidopsis thaliana with 6 samples.

Results

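The genes described here are those that encode proteins of the cytosolic ribosome in Arabidopsis thaliana. They were taken from the deposited gene table by name: a nuclear gene was a member if its symbol began with RPL or RPS (large or small subunit), followed by a number and a paralog letter or letters. This gave 195 of the 18368 genes used, 83 named RPS and 112 named RPL, which fall into 75 subunit names. They are spread over all 5 chromosomes, with 57 on chromosome 3 and 25 on chromosome 4. RefSeq places 5 of them in plastids or mitochondria (RPL3A, RPL3B at AT3G17465, RPL12A at AT3G27830, RPL12C at AT3G27850 and RPL21M). The other 190 are counted here as cytosolic ribosomal protein genes. Among these, RPS15AB and RPS15AE share 92.2% of residues with each other but 51.5 to 53.8% with the other RPS15a proteins, and where their proteins are located was not tested. The rule leaves out cytosolic genes with other symbols, such as RP1, PGY3 and those of the acidic stalk, which are given separately.

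RNA was sequenced from wild type Col-0 seedlings in 2 groups of 3 libraries, each replicate grown on separate plates. Non-vernalized seedlings (0v) spent 11 days at 22 °C. Vernalized seedlings (4v) spent 7 days at 22 °C and then 28 days at 5 °C, which are the 4 weeks of cold in their name. The groups were therefore 11 and 35 days old when sampled, and the effects of cold and of age cannot be told apart. All values are for whole seedlings, in which fewer cells of a type and less RNA per cell cannot be told apart either.

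A cytosolic ribosome is built of a small (40S) and a large (60S) subunit, each a scaffold of ribosomal RNA carrying many different proteins in single copies. Plants are known for keeping several nuclear genes, here called paralogs, for nearly every one of these proteins, so that the same position in the ribosome can be filled from different genes. Transcription of plant ribosomal protein genes is associated with short promoter elements, among them the telo box and site II, and their expression is highest in growing and dividing tissue.

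Depth differed strongly between libraries. Totals were 1645379 to 20005225 reads in 0v and 1636687 to 23141488 in 4v, with 0v replicate 3 and 4v replicate 2 being the deep libraries. The median member still had 215 to 312 reads in the shallow libraries, against 24 to 30 for the median gene. Values are normalized counts, that is, reads divided by a size factor for each library. Fold changes (log2FC, 4v over 0v, given with their SE) are on the scale log2(normalized count + 4) and were tested with limma. The test covered the 16771 genes whose normalized count averaged 10 or more. A gene is called higher or lower in 4v when its Benjamini-Hochberg adjusted p over all these genes is under 0.05. All members but RPS8B (mean 8.14) were tested, which makes 194. Leaf mesophyll genes stood high in every library (LHCB1.3 between 164150 and 421440 normalized counts). Of 9 listed genes of dividing cells, 1 was called higher (MCM5, from 66.0 ± 14.2 to 129 ± 12.2, SD, n = 3) and none lower (3 and 0 at an unadjusted p under 0.05 in limma, 1 and 0 by edgeR, 2 and 0 by DESeq2). Over all genes tested, 32% had an unadjusted p under 0.05 in limma, in either direction. The call of MCM5 was lost without 0v replicate 1 or any of the 4v libraries (highest adjusted p 0.111). The summed level of the 9 genes was 476 to 771 in 0v and 703 to 829 in 4v, with none at 0. Of 5 tested root genes, limma and edgeR called the vacuolar ammonia channel TIP2-3 lower in 4v (log2FC -3.77), and DESeq2 also CASP1 of the endodermis (log2FC -1.28, limma adjusted p = 0.0616). SCR, SHR and PHO1 went the other way (log2FC 0.41, 0.30 and 0.77) and were not called. The median log2 fold change of the tested root genes was 0.30. The part that these cell types have in the results was not tested.

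The summed transcript levels of ribosomal protein genes overlapped between the groups of seedlings. The 83 cytosolic 40S members summed to 72068 ± 3236 normalized counts in 0v and 74710 ± 8597 in 4v (SD, n = 3), and the 107 cytosolic 60S members to 95683 ± 5022 and 105225 ± 12680. Neither difference was larger than the spread between replicates (exact permutation test, two-sided p = 0.9 and 0.3, adjusted over 3 tests to 0.9 and 0.45, with 0.1 the smallest p that 3 libraries against 3 allow). Together the 190 genes took 2.81, 3.27 and 3.01% of the reads in the 0v libraries and 3.21, 3.80 and 3.87% in the 4v libraries. The ranges overlapped, since 4v replicate 1 lay below 0v replicate 2 (exact permutation p = 0.2, adjusted 0.45).

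Gene by gene, most fold changes were small. The log2 fold changes of the 194 tested members had a median of 0.13, with quartiles of -0.12 and 0.34, beside a median of 0.05 and quartiles of -0.41 and 0.51 for all genes. Without 4v replicate 3 the median of the members was 0.06, beside 0.06 for all genes, and without 4v replicate 1 it was 0.22, beside 0.05. The median was 0.10 for 40S and 0.17 for 60S members. A fold change within 0.5 of 0 on the log2 scale was found for 160 members (82.5%), compared with 53.6% of all genes. The members were also more abundant, with a median mean count of 779 against 89.7 for all genes.

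Against this background 10 members were called higher in 4v (5.15% of those tested) and 8 lower (4.12%). Over all genes tested 6.46% were called higher and 6.99% lower, so that with this normalization calls were no more frequent among the members than in the table as a whole. In every 4v library above every 0v library were 43 members (22.2%, against 20.5% of all genes), and below them 23 members (11.9%, against 18.7%). When values were instead scaled by library total, which shifted the median of all genes by 0.15 on the log2 scale, 25 members were called higher (12.9%, against 8.5% of all genes) and 6 lower (3.09%, against 4.80%). With quantile normalization 21 were called higher (10.8%, against 6.60%) and 7 lower (3.61%, against 7.54%). Under these 2 scalings the share called higher was thus above that of all genes. With the 4 shallow libraries alone the counts were 3 and 5 (1.55 and 2.58%, against 4.59 and 5.2% of all genes). Without 4v replicate 1 they were 1 and 1 (0.515% each, against 1.55 and 2.39% of all genes).

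**Figure D1:**
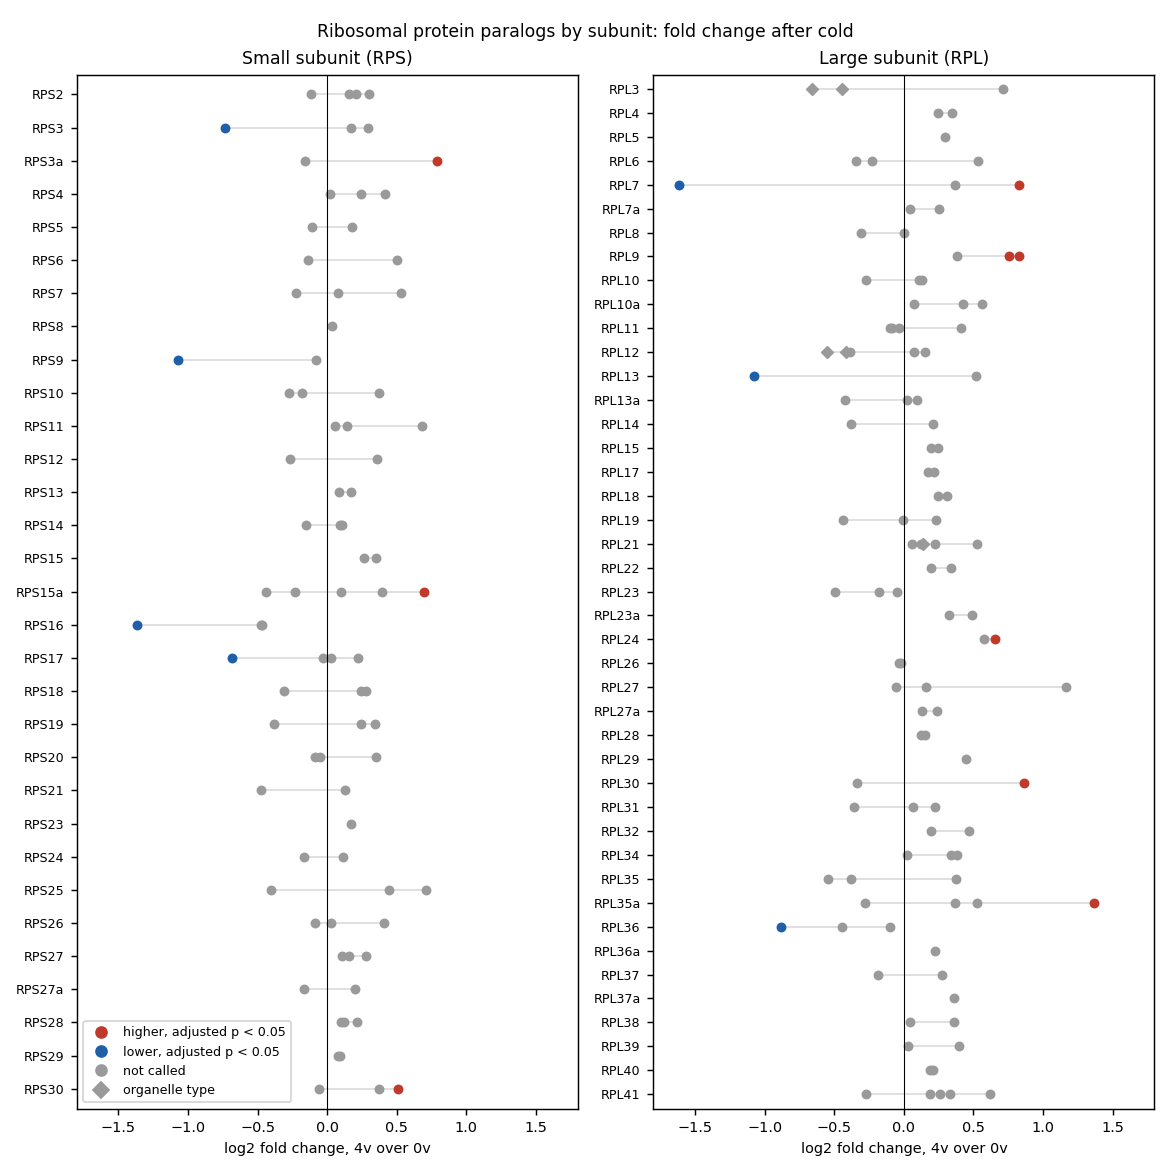
Log2 fold change (4v over 0v, x axis) of 191 of the tested members, 1 row per subunit name, with the small subunit on the left and the large on the right. Each point is a gene, joined to its paralogs by a grey line. Red points are 9 genes called higher, blue points 7 called lower, and diamonds the 5 organelle-type genes. Most points lie within 0.5 of 0, and the widest line is that of RPL7, from -1.62 to 0.83.

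The 18 called genes belonged to 15 subunits, 11 genes to 60S and 7 to 40S, and for each of them the 0v and 4v libraries did not overlap. All 18 kept their direction in each alternative fit and without each library. The call itself depended on single libraries for most. It held without any 1 library for RPL7D and RPL35AA (highest adjusted p 0.0153 and 0.0399). RPL36A and RPL13D lost it only without 4v replicate 1 (0.0506 and 0.0579), and for the other 14 it was lost without 3 or more of the 6 libraries in turn, with a highest adjusted p between 0.0658 and 0.145.

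**Figure D2:**
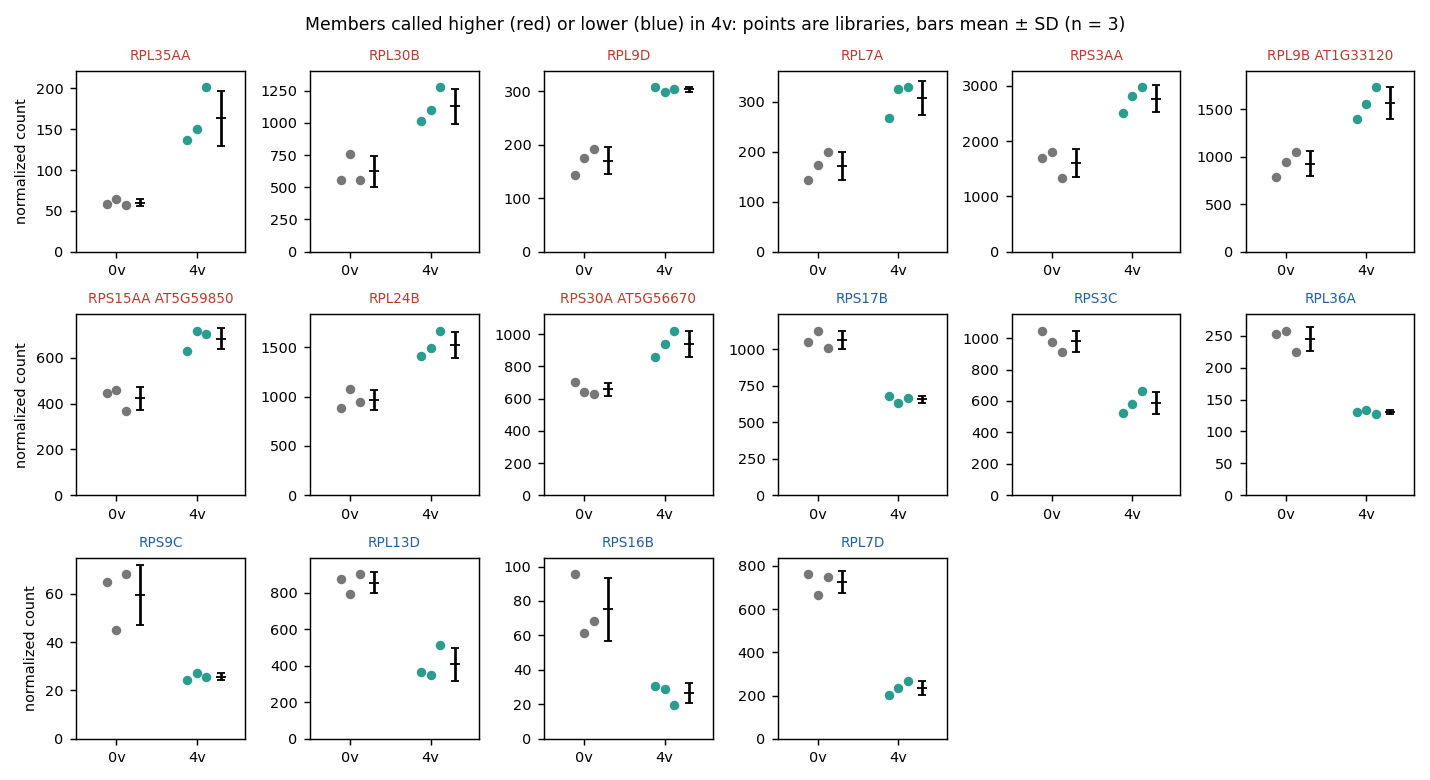
Normalized counts (y axis, from 0) of 16 of the called members in the 3 libraries of 0v (grey) and of 4v (green), with the mean and SD beside the points. Names in red are called higher and names in blue lower. The 4v libraries lie on 1 side of all 0v libraries in each panel, as for RPL7D with 665 to 761 in 0v and 201 to 267 in 4v.

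The difference was greatest in RPL7, a protein of the large subunit with 3 genes in the table. RPL7D (AT3G13580, chr3:4433047-4435305) had 761, 665 and 750 normalized counts in the 0v libraries and 201, 237 and 267 in the 4v libraries. Every 4v library was thus below the lowest 0v library, and RPL7D had the largest fall of any member (log2FC -1.62 ± 0.15, adjusted p = 0.0026). RPL7B (AT2G01250) moved from 1778 ± 145 to 2303 ± 258 (SD, n = 3), a log2 fold change of 0.37 that did not pass (adjusted p = 0.136), although the libraries did not overlap. RPL7A (AT1G80750), with 143, 174 and 199 counts in 0v and 268, 325 and 329 in 4v, was called higher (log2FC 0.83 ± 0.18, adjusted p = 0.0259). RPL7A is the least like the others, sharing 44.0% of residues with RPL7B and 42.7% with RPL7D, which share 90.2% with each other.

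Because the share of a paralog in its subunit is formed within a library, the size factor cancels from it. Only paralogs found by the name rule enter a share, so genes with another symbol or absent from the table are not counted. As levels per kb of coding length, RPL7D held 29.2, 23.8 and 28.2% of RPL7 in 0v and 7.92, 8.27 and 8.39% in 4v. RPL7B stood at 66.6 ± 3.04% in 0v and 81.2 ± 0.61% in 4v, and RPL7A went from 6.33 ± 0.99% to 10.6 ± 0.54%. The summed counts of the 3 genes overlapped between the groups (2591 to 2784 in 0v and 2524 to 3166 in 4v).

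RPL13, another 60S protein, has 2 genes in the table that share 88.3% of residues. RPL13D (AT5G23900) fell from 874, 790 and 902 normalized counts in 0v to 365, 347 and 511 in 4v, all below the 0v libraries (log2FC -1.08 ± 0.18, adjusted p = 0.0126). RPL13B (AT3G49010) had 1311, 1568 and 1278 in 0v and 1830, 1937 and 2195 in 4v, with no overlap, but missed the threshold (log2FC 0.52 ± 0.15, adjusted p = 0.0594). RPL13B made up 61.7 ± 4.20% of RPL13 in 0v and 83.1 ± 1.86% in 4v, while the summed counts overlapped (2179 to 2358 and 2196 to 2706).

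In RPL30 the leading gene was a different one in each group. RPL30B (AT1G77940) rose from 553, 761 and 559 normalized counts to 1014, 1097 and 1278 (log2FC 0.86 ± 0.17, adjusted p = 0.0223). RPL30C (AT3G18740) had 638, 842 and 986 in 0v and 557, 680 and 693 in 4v, groups that overlapped and did not pass (log2FC -0.34 ± 0.19, adjusted p = 0.271). RPL30C therefore held 56.6 ± 6.24% of RPL30 in 0v and RPL30B 63.7 ± 1.72% in 4v, and the same gene led in each library of its group. The proteins share 93.8% of residues.

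These 3 families show, for paralogs of 1 protein, how far the promoters of a gene that was called and of a paralog that was not differ in the known elements. The stretches run from 250 bases before to 50 bases after the annotated transcript start (RefSeq, TAIR10.1), read in the direction of the gene. Capitals mark the telo box (AAACCCTA) and the site II element (TGGGCC or TGGGCT) on either strand. RPL7B lies at chr2:134406-134705 (minus strand) and RPL7D at chr3:4432797-4433096 (plus strand).
RPL7B: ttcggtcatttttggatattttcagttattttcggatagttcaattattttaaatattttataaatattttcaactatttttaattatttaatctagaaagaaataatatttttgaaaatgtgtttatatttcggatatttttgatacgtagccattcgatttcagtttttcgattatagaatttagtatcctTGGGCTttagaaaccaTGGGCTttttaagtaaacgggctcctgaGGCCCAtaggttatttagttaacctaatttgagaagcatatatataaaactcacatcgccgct
RPL7D: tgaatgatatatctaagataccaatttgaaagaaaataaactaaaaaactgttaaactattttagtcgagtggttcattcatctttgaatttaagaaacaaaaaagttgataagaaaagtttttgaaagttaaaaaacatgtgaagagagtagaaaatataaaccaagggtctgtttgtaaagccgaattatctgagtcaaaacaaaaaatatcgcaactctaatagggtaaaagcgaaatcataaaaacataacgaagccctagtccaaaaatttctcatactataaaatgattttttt
RPL13B lies at chr3:18168651-18168950 and RPL13D at chr5:8065501-8065800, both on the minus strand.
RPL13B: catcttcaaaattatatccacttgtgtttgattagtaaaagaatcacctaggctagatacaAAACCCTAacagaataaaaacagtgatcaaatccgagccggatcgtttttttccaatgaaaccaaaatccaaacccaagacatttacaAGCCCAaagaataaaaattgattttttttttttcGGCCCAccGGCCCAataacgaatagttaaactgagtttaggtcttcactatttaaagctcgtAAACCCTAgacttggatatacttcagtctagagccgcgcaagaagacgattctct
RPL13D: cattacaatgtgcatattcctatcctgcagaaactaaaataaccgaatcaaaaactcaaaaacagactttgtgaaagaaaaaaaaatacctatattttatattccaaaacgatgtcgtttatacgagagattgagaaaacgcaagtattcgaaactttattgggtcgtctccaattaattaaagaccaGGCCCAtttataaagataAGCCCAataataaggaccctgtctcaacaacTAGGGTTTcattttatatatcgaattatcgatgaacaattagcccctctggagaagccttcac
RPL30B lies at chr1:29305362-29305661 (minus strand) and RPL30C at chr3:6453053-6453352 (plus strand).
RPL30B: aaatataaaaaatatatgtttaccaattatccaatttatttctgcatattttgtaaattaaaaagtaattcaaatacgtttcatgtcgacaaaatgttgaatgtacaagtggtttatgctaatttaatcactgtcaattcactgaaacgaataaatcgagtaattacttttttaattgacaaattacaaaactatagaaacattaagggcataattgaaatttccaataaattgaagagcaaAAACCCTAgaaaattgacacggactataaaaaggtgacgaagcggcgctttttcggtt
RPL30C: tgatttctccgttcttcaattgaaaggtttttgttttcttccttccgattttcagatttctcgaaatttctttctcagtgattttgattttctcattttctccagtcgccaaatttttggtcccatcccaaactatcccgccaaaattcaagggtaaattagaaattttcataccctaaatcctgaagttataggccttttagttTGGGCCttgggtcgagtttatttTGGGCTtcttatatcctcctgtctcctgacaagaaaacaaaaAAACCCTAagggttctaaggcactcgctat

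In these windows RPL7B held 3 site II matches and RPL7D no match to either element. RPL7A, the RPL7 gene called higher, is not printed, and its window held 3 site II matches, like that of RPL7B, and 0 telo boxes. RPL13B held 2 telo boxes and 3 site II matches, and RPL13D 1 and 2. RPL30B, the gene called higher, held 1 telo box and no site II, and RPL30C, which was not called, 1 telo box and 2 site II matches. A match describes these letters only and says nothing of the binding of a factor.

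The same elements were common among the members. A telo box was present in 97 of 195 promoters (49.7%), against 5.46% of all genes in the table, and site II in 146 (74.9%), against 25.9%. Both were present in 40.5% of member promoters and neither in 15.9%, compared with 2.46% and 71.1% of all genes. Overlapping letters on the 2 strands were counted as separate matches. Telo boxes clustered at the annotated start, with a median position of 2 and 53.3% of matches at or after it, whereas 83.3% of site II matches lay in the 150 bases before it (median -47, positions being those of the leftmost base and 0 the first base of the transcript). Within the 250 bases before the start alone, 20.5% of members held a telo box and 66.7% site II. Of the 10 members called higher 7 held a telo box and 8 site II, and of the 8 called lower 3 and 6.

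**Figure D3:**
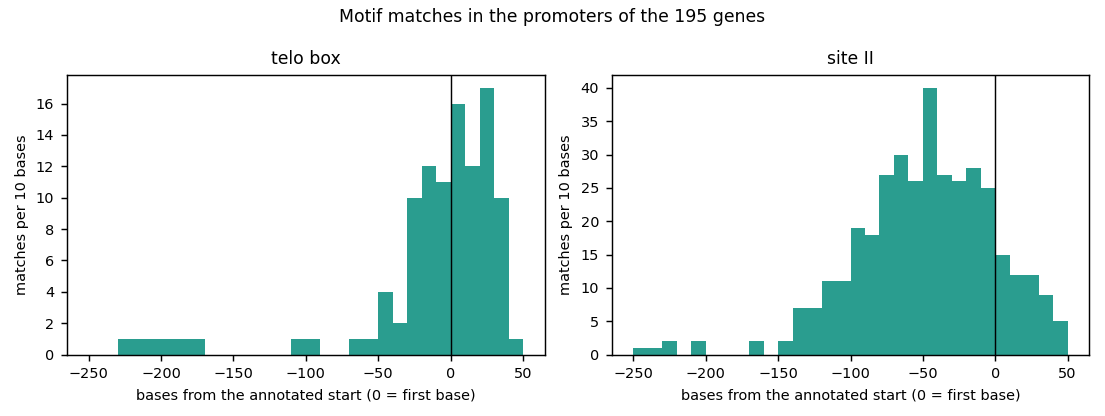
Positions of telo boxes (left, 105 matches) and site II elements (right, 365 matches) in the promoters of the 195 members. The x axis gives bases from the annotated start, 0 being its first base, and the y axis matches per 10 bases on either strand. Telo boxes crowd around the start (median 2) and site II before it (median -47).

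The largest rise was that of RPL35AA (AT1G07070), 1 of 4 genes for the 60S protein RPL35a. It had 58.0, 64.5 and 57.4 normalized counts in 0v and 137, 151 and 202 in 4v, all above 0v (log2FC 1.37 ± 0.21, adjusted p = 0.0098). In the shallow libraries these values rest on 17 to 71 reads. RPL35AA was the least expressed of its family and its share went from 3.38 ± 0.33% to 7.14 ± 0.86%. The other 3 genes were not called, with log2 fold changes of 0.37 (RPL35AB), -0.28 (RPL35AC) and 0.52 (RPL35AD). RPL35AB and RPL35AD have 98.2% of coding bases in common and may exchange reads, so their separate values are uncertain.

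In RPL9 all 3 genes stood higher in every 4v library, and 2 passed. RPL9D (AT4G10450) had 143, 174 and 192 normalized counts in 0v and 308, 298 and 304 in 4v (log2FC 0.83 ± 0.16, adjusted p = 0.0187). Both other genes carry the symbol RPL9B and share 99.1% of coding bases, so that their reads may be exchanged. Of these AT1G33120 was called (log2FC 0.75 ± 0.16, adjusted p = 0.0254) and AT1G33140, also known as PGY2 and named for its effect on leaf shape, was not (log2FC 0.38 ± 0.13, adjusted p = 0.0941). Summed, RPL9 had 2437 to 2872 counts in 0v and 3666 to 4267 in 4v.

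RPL24 has 2 genes in the table, and both stood higher in every 4v library. RPL24B (AT3G53020), known as STV1 and needed for translation of mRNAs with upstream reading frames, rose from 881, 1074 and 948 normalized counts to 1413, 1496 and 1670 (log2FC 0.66 ± 0.14, adjusted p = 0.0258). RPL24A showed a log2 fold change of 0.57 ± 0.18 with no overlap between groups but did not pass (adjusted p = 0.0791). Summed, RPL24 had 1470 to 1803 counts in 0v and 2174 to 2712 in 4v.

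The last large-subunit call was RPL36A (AT2G37600), with 253, 258 and 224 normalized counts in 0v and 131, 133 and 128 in 4v. It fell by 0.88 on the log2 scale (SE 0.14, adjusted p = 0.0122). RPL36B, with a log2 fold change of -0.45, and RPL36C, with -0.10, were not called. RPL36C led the family in each 4v library (50.7 ± 2.65%) and RPL36B in each 0v library (47.0 ± 1.63%).

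In the small subunit, S3a showed an exchange of the leading gene. RPS3AA (AT3G04840) rose from 1693, 1800 and 1327 normalized counts to 2509, 2820 and 2976 (log2FC 0.79 ± 0.17, adjusted p = 0.0246), while RPS3AB (AT4G34670) had 2075 ± 38.7 and 1876 ± 346 and was not called. RPS3AB made up 56.5 ± 4.17% of S3a in 0v and RPS3AA 59.8 ± 2.50% in 4v. The protein, of which the 2 forms share 94.3% of residues, sits near the exit of the mRNA channel.

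For the distinct protein S3, at the entry of that channel, RPS3C (AT5G35530) fell from 1048, 978 and 914 normalized counts to 524, 579 and 664 (log2FC -0.74 ± 0.14, adjusted p = 0.0193). RPS3A and RPS3B were not called (log2 fold changes 0.29 and 0.17). RPS17B (AT2G05220) fell from 1048, 1129 and 1008 to 679, 633 and 664 (log2FC -0.68 ± 0.12, adjusted p = 0.015), and none of RPS17A, RPS17C and RPS17D was called. RPS17B shares 97.7% of coding bases with RPS17A and 95.8% with RPS17D, so reads may be divided unequally among them.

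In RPS15a the gene AT5G59850, 1 of 2 with the symbol RPS15AA, rose from 444, 458 and 366 normalized counts to 630, 718 and 701 (log2FC 0.69 ± 0.14, adjusted p = 0.0232). Its protein is identical to that of AT1G07770 over 130 residues, and the latter had 1178, 952 and 674 in 0v and 603, 584 and 855 in 4v, which overlapped. In RPS30 the 3 proteins are likewise identical, and AT5G56670 alone was called, with 703, 642 and 627 in 0v and 856, 939 and 1022 in 4v (log2FC 0.51 ± 0.13, adjusted p = 0.0446).

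A pair of weakly expressed 40S genes was called lower. RPS16B (AT3G04230), for a protein whose tail reaches the tRNA bound in the decoding centre, had 95.6, 61.3 and 68.4 normalized counts in 0v and 30.5, 29.2 and 19.9 in 4v (log2FC -1.37 ± 0.29, adjusted p = 0.0258). RPS9C (AT5G39850) had 64.9, 45.2 and 68.2 in 0v and 24.4, 27.4 and 25.6 in 4v (log2FC -1.07 ± 0.27, adjusted p = 0.0445). Both rest on 7 to 10 reads in each shallow 4v library. The abundant genes of these proteins were not called: RPS16C had a log2 fold change of -0.47, RPS16A of -0.47 and RPS9B of -0.08. The summed RPS16 counts were nevertheless lower in every 4v library (1684 to 2300, against 2465 to 3147).

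Counts were also summed over the cytosolic paralogs of each subunit. The log2 ratio of the sums ranged from -0.49 (RPS16) to 0.73 (RPL3, for which ARP2 at AT1G61580 is the only cytosolic member by name), and 72 of 75 lay within 0.5 of 0. Sums were higher in every 4v library for 11 of the 75 subunits and lower in every one for 6. Among all single genes tested the shares were 20.5 and 18.7%. RPL3, 1 of the 11, rests on ARP2 alone, without the more abundant RP1. The counts of subunits became 30 and 1 with scaling by library total and 22 and 2 with quantile normalization. RPL9 and RPL24 stayed higher and RPS16 lower in every 4v library under both. Of 68 subunits with 2 or more tested cytosolic members, 38 held fold changes of both signs, and 2 held calls in both directions, RPL7 being the one described above.

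In most subunits the composition stayed close. Of 69 with 2 or more cytosolic paralogs, the largest shift of a share was under 5 percentage points in 38 and 10 points or more in 15 (median 4.45). A different gene led in 0v and 4v in 8 subunits. In 4 of these, RPL30, RPS3a, RPL36 and RPS6, every library had the leading gene of its group. RPS6, the 40S protein phosphorylated by S6 kinase and picked out after its values were seen, changed from RPS6B (58.4 ± 4.13% in 0v) to RPS6A (52.6 ± 1.54% in 4v), though neither gene was called. Exact permutation tests were made on shares that include the organelle-type members of a subunit name. Of these 190 shares, 108 reached the smallest p of the test (0.1). In a subunit of 2 genes both shares give the same p. None passed after adjustment (lowest adjusted p = 0.176), as 3 libraries against 3 cannot go lower.

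**Figure D4:**
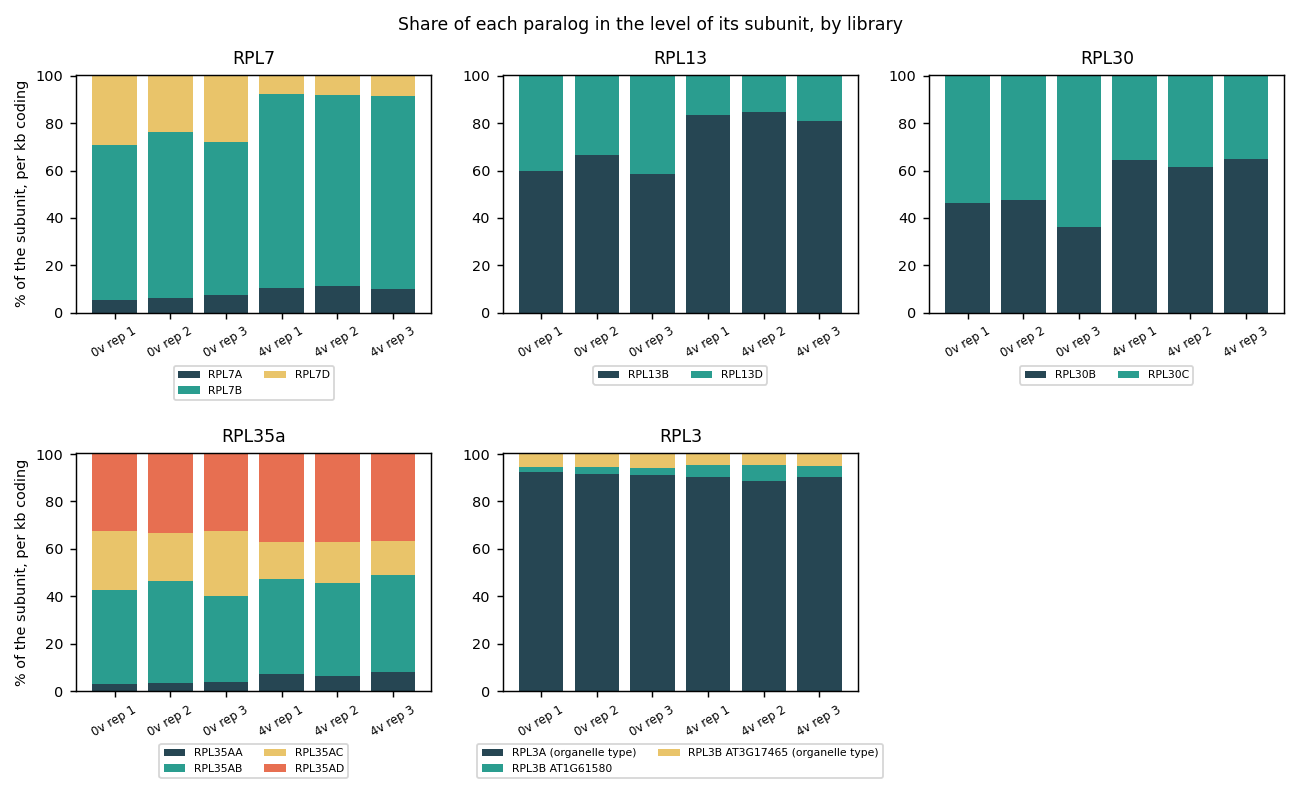
Share of each paralog (y axis, % of the summed normalized count per kb of coding length) in 5 of the subunits whose paralogs differed most in fold change, 1 bar per library. RPL7D takes 23.8 to 29.2% of the 0v bars and 7.92 to 8.39% of the 4v bars, RPL13B averages 61.7% in 0v and 83.1% in 4v, and RPL30B lies below RPL30C in 0v and above it in 4v. The RPL3 panel mixes cytosolic and organelle-type genes.

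Levels per kb of coding length covered a wide range among the members, from 12.9 (RPS8B) to 7643 normalized counts (RPL41C at AT3G08520), with a median of 1920. The 5 highest were 2 of the 5 genes named RPL41C (AT3G08520 and AT1G56045, at 7643 and 7532), RPL37AC (6468), RPL14B (5398) and RPL23A at AT3G04400 (5278). None of them was called. The coding sequence of RPL41 has only 78 bases and its paralogs are nearly identical, which makes both the levels per kb and the split between the genes uncertain. RPL14B had 2470 ± 80.6 in 0v and 1903 ± 205 in 4v without overlap (log2FC -0.38 ± 0.14, adjusted p = 0.114). RPL37AC had 1578 ± 157 and 2031 ± 221, also without overlap (log2FC 0.36 ± 0.15, adjusted p = 0.147). AT3G04400 had 2271 ± 212 and 2193 ± 263, and the sign of its small difference turned with the scaling.

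The lowest member, RPS8B, had 0, 2 and 10 reads in 0v and 5, 79 and 3 in 4v, while its paralog RPS8A stood at 2899 to 3881 normalized counts in all 6 libraries. ARP2 had 85.3, 110 and 109 normalized counts in 0v and 143, 185 and 176 in 4v (log2FC 0.71 ± 0.19, adjusted p = 0.0507), just outside the threshold. RP1, the abundant gene for the same L3 protein, had 3239 ± 262 and 3551 ± 527 and was not called.

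Another 16 tested genes of the cytosolic ribosome carry symbols outside the name rule. Of these 2 were called higher and none lower, with a median log2 fold change of 0.12. Both were genes of RACK1, a scaffold protein bound to the 40S subunit. RACK1C rose from 171, 226 and 193 to 445, 465 and 528 normalized counts (log2FC 1.27 ± 0.16, adjusted p = 0.0056), and RACK1B from 331, 368 and 278 to 506, 555 and 639 (log2FC 0.80 ± 0.16, adjusted p = 0.0225). The most abundant gene, RACK1A, stood at 1668 ± 224 and 1625 ± 219. Without any 1 library RACK1C stayed called (highest adjusted p 0.0297), whereas RACK1B lost its call without 0v replicate 1 or any of the 4v libraries (highest 0.0844). At an unadjusted p under 0.05, 6 of the 16 genes were higher and 1 lower, beside 32% of all genes tested in either direction. By adjusted p, edgeR called 2 higher and DESeq2 3, and none lower. Genes of the acidic stalk (RPP0 to RPP3) were not called by limma or edgeR, with log2 fold changes between -0.46 (RPP1A) and 0.53 (RPP0A), whereas DESeq2 called RPP0B higher (log2FC 0.50, limma adjusted p = 0.0956, DESeq2 adjusted p = 0.0393).

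Of 24 translation factor genes, 3 were called higher and 2 lower (median log2 fold change 0.05). At an unadjusted p under 0.05 in limma there were 4 and 3, beside 32% of all genes tested in either direction. By edgeR the counts were 2 and 2, and by DESeq2 3 and 3. EIF4G, the scaffold of the cap-binding complex, went from 450 ± 9.96 to 787 ± 80.7 (log2FC 0.80, adjusted p = 0.0126), EIF4E, which binds the cap, from 179 ± 27.6 to 300 ± 20.6 (0.74, adjusted p = 0.0291) and the helicase EIF4A2 from 495 ± 42.2 to 691 ± 17.2 (0.48, adjusted p = 0.0469). The genes called lower were AT1G30230, for the elongation exchange factor eEF1B (log2FC -0.76, adjusted p = 0.0238), and AT1G13950, 1 of 3 for eIF5A (log2FC -1.23, adjusted p = 0.0457). Of their relatives, EIF4A1 had a log2 fold change of -0.21 ± 0.16 and EIFISO4E of -0.21 ± 0.50, and neither was called. The EIFISO4E means were alike (71.3 ± 20.1 and 71.4 ± 54.1), with 94.5 (0v) and 133 (4v) in the deep libraries against 30.5 to 61.4 in the shallow ones. The gene LOS1, for elongation factor 2, was not called. EIF4G lost its call without 4v replicate 1 or 2 (highest adjusted p 0.0579), and the other 4 without 4 or more of the 6 libraries in turn (0.103 to 0.15).

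None of the 5 TOR pathway genes and none of the 5 genes for proteins that bind these promoters was called by limma, nor by edgeR or DESeq2. At an unadjusted p under 0.05 in limma 1 TOR pathway gene was lower and 0 of the promoter-binding factors differed. The share of all genes tested was 32%, in either direction. Their median log2 fold changes were -0.04 and -0.22, but these medians include S6K2 and TCP20, which had no reads in the shallow libraries. The other TOR pathway genes stood at 0.27 (TOR), -0.33 (RAPTOR1), -0.04 (S6K1) and 0.25 (TAP46), so the negative sign of the TOR pathway median depended on S6K2. The other promoter-binding factors stood at -0.29 (PURA1), -0.11 (TRB1), 0.22 (TRB2) and -0.22 (TRB3). The kinase TOR itself had 369 ± 28.5 and 446 ± 37.7 normalized counts, and S6K1 522 ± 89.7 and 505 ± 40.7. S6K2 and TCP20 had 0 reads in all 4 shallow libraries but counts in both deep ones, so no fold is given for them.

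Ribosomal proteins of the plastid are encoded in the nucleus as well. Of 22 listed genes 3 were called lower and 1 higher, with a median log2 fold change of -0.33. DESeq2 called 6 lower and 1 higher and edgeR 2 and 1. At an unadjusted p under 0.05 in limma 10 were lower and 2 higher, beside 32% of all genes tested in either direction. Each of the 4 calls by adjusted p in limma was lost on leaving out any 1 library other than 0v replicate 3 (highest adjusted p 0.101 to 0.152). PRPS21 went from 1527 ± 178 to 915 ± 115 (log2FC -0.74, adjusted p = 0.0251), PRPL29 from 2785 ± 135 to 1727 ± 236 (-0.70, adjusted p = 0.027) and PRPL6 from 2870 ± 90.1 to 1902 ± 294 (-0.60, adjusted p = 0.0458), whereas PRPL35 rose from 1077 ± 56.8 to 1649 ± 237 (0.61, adjusted p = 0.039). The members that RefSeq assigns to plastids or another organelle type were not called, with log2 fold changes of -0.44 (RPL3A), -0.66 (AT3G17465), -0.55 (AT3G27830) and -0.42 (AT3G27850), beside 0.14 for the mitochondrial RPL21M. Without these 5 genes the median of the members was 0.14.

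**Figure D5:**
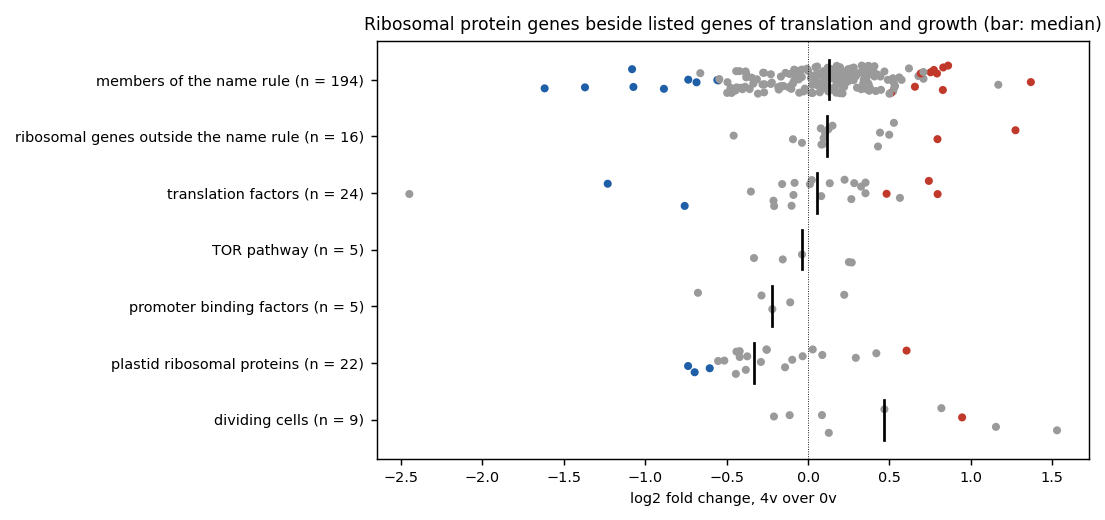
Log2 fold change (4v over 0v, x axis) of the 194 tested members and of the listed genes of translation, TOR signalling, promoter-binding factors, plastid ribosomal proteins and dividing cells. Each point is a gene (red called higher, blue called lower, grey not called), and the black bar is the median. The bar lies at 0.13 for the members and at -0.33 for the 22 plastid ribosomal protein genes.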

How the data were processed

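Total RNA of 6 samples (3 of 0v, 3 of 4v) was poly(A)-selected with the TruSeq mRNA kit and sequenced in pairs of 75 bases on an Illumina HiSeq. Per the paper's methods and the labels, the authors quantified reads with Kallisto against TAIR10 and processed them with DESeq2, and their versions and strand setting are not given in the sources used here. Each value the authors deposited is a signal, the read count of a gene divided by the size factor of its library, and 99.99% of values were whole reads after rescaling (tolerance 0.05 read). The deposited table also holds fold changes, p-values and means of the authors' own comparison, which were not used, nor were 20 columns that carry no sample name. Of 18369 genes, 1 with displaced values was left out.

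Members were the genes whose symbol in either name column fits the rule, 1 of them by the second column alone. The members, lists and tests were chosen with earlier results of these data known. Values were tested with limma 3.58.1 (R 4.3.3; linear model, eBayes with trend, two-sided) on log2(normalized count + 4), without covariates, in genes whose mean was 10 or more. Genes were named by these rules: up to 10 largest rises and 10 largest falls among called members with a mean of at least 50, the called members of the less frequent direction, all paralogs of the 6 subunits with the widest spread of fold changes, the 5 highest levels per kb, members with 0 reads in a whole group, and up to 4 called genes with the smallest adjusted p from each list. Other paralogs of these subunits, list genes that were not called and RPS8B were named after their values were seen. Values of 1 subunit are not reported here, in the text or in the plots by gene, although its genes stay in the counts. Shares and sums were compared with exact permutation tests. Alternatives were pseudocounts of 1 and 16, other filters, the replicate number as a block, quantile and library-total scaling, edgeR 4.0.16 and DESeq2 1.42.0 on recovered reads, the shallow libraries alone, depth class as a covariate, the paper's thresholds, and leaving out each library. Leaving out the organelle-type members was added after seeing the data.

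Promoters and coding sequences came from RefSeq TAIR10.1, in which 18305 of 18307 nuclear genes had the coordinates of the deposited table. Sequence identities were computed with Biopython. Of the 195 members, 57 overlap another annotated gene, among them 6 of the 18 called, and 14 of 186 pairs of paralogs share 95% or more of their coding bases, so some reads could be given to more than one gene. Steps were tested on simulated data. Replicates grew on separate plates, so p-values measure the spread between such plates.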

Additional observations from a re-analysis of the deposited data

How the results depend on the processing

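The number of members called was the least stable result. Against 10 higher and 8 lower, the 4 shallow libraries alone gave 3 and 5 (1.55 and 2.58% of members, against 4.59 and 5.2% of all genes). The replicate number used as a block gave 3 and 3 (1.55% each, against 2.87 and 3.38% of all genes). DESeq2 on recovered reads called 16 higher and 10 lower (8.25 and 5.15% of members, against 6.62 and 8.35% of all genes), quantile normalization 21 and 7, and scaling by library total 25 and 6. In these 3 fits, unlike the reported one, the share called higher was above that of all genes. Leaving out each library in turn gave 1 to 12 higher and 1 to 9 lower, the lowest counts being those without 4v replicate 1. Without that library 0.515% of members were called in each direction, against 1.55 and 2.39% of all genes. Without 0v replicate 3, which gave the highest counts, the shares were 6.19 and 4.64%, against 9.06 and 8.58%. Other fits, among them edgeR (9 and 8) and the thresholds of the paper (13 and 8), stayed within 1.5 times of the counts, as did leaving out the organelle-type members. By edgeR 4.64 and 4.12% of members were called, against 5.64 and 7.17% of all genes. The share of all genes is not given for the thresholds of the paper.

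The median log2 fold change kept its sign in each fit. Scaling by library total moved it to 0.292 for all members, 0.257 for 40S and 0.327 for 60S, but moved the median of all genes to 0.199 as well. Quantile normalization gave 0.249 (-0.00708 for all genes) and the shallow libraries 0.086 (0.0367). Leaving out each library gave 0.0609 to 0.215, the lowest being without 4v replicate 3 (0.0557 for all genes) and without 0v replicate 3 (0.0741, beside 0.0528) and the highest without 4v replicate 1 (0.0452). From the reported 0.132 for all members, the move with scaling by library total was larger than the spread between replicates (SD 0.125). The other moves were smaller than this spread. All of them changed the median by over 1.5 times. Of the genes named by rule, AT3G04400 (RPL23A) was the one that changed sign, to 0.165 with quantile normalization, 0.108 with scaling by library total and 0.0047 without 4v replicate 1 (-0.149 to 0.0047 over the libraries left out). The same-numbered libraries of both groups did not deviate together (correlations of 0.0653, -0.131 and -0.132). The highest correlation, 0.271, was that of the deep libraries, 0v replicate 3 and 4v replicate 2. With 3 libraries in each group and unequal depth, these values cannot exclude a pairing by number, and the block is a check only. Depth limits genes with few reads: in the shallow libraries RPS16B and RPS9C rest on as few as 7 and 8 reads. Single members also differed between deep and shallow libraries in normalized counts. RPL18C had 395 (0v) and 533 (4v) in the deep libraries, against 107 to 230 in the shallow ones. RPL35C went the other way, with 15.0 and 14.2 against 36.9 to 80.7. Both were picked out after their values were seen.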

Other observations

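The widest fold change among members that were not called was that of RPL27A (AT2G32220), a gene with few reads that was picked out after its values were seen. It had 10.2, 6.45 and 22.1 normalized counts in 0v and 42.6, 31.4 and 22.7 in 4v (log2FC 1.17 ± 0.47, limma adjusted p = 0.14), while RPL27B and RPL27C stood at log2 fold changes of 0.16 and -0.06. At an unadjusted p under 0.05, 60 of the 194 tested members (30.9%) differed between the groups, close to the 32.0% of all genes tested. The gene RPL14B, 1 of the 5 highest per kb, stood lower in every 4v library together with the sum of its subunit (2627 to 2837 in 0v and 1976 to 2439 in 4v), although that sum overlapped with scaling by library total or quantile normalization.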
